A study of Homo sapiens with 6 samples.

Results

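Long intergenic noncoding RNAs (LINC genes) are transcribed from stretches of the genome between protein-coding genes, are mostly spliced and polyadenylated like messenger RNAs, and are not known to be translated, with a few exceptions. The set described here holds the genes of the deposited count table whose symbol is LINC followed only by digits and whose mean raw count over the 6 libraries was at least 15. Of 36884 genes in the table, 1732 LINC symbols were present, 1002 of these had no count in any library, and 126 met the rule. The lowest of them were LINC00324 at a mean of 15.3 counts and LINC00460, LINC00211 and LINC01778 at 15.8, while LINC01152 (14.8), LINC01186 (14.7) and LINC00705 (14.3) fell just outside.

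Many such RNAs are retained in the nucleus, are made at low levels and are present in few cell types. Some act on the gene beside which they are transcribed, some bind proteins or microRNAs, and for most no function is known. Because they are often short-lived, their level follows both transcription and decay.

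RNA was sequenced from RPE1, an immortalized and non-transformed epithelial line derived from human retinal pigment epithelium. In the cells of all 6 libraries LATS1 and LATS2, the Hippo-pathway kinases that restrain the coactivators YAP and TAZ, had been inactivated with CRISPR-Cas9, so the control cells also lacked them. The 3 control libraries came from cells given control siRNA and the other 3 from cells whose MK5, the protein kinase that MAPKAPK5 encodes, was targeted by siRNA, with 48 h of transfection in each group. The series has no cells with intact LATS1 and LATS2, and the labels used here give neither the number of edited clones nor the siRNA sequences. The submitters call the libraries biological replicates without naming what separates them, so p-values measure the spread between these libraries. In bulk RNA, fewer cells with an RNA and less of it per cell cannot be told apart.

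Each library held between 27188074 and 28236773 counts. MAPKAPK5 stood at 35.6, 29.05 and 31.3 CPM, counts scaled to the size of the library, in the control libraries and at 17.4, 14.1 and 16.2 CPM in the MK5 siRNA libraries, with no overlap. Its log2 fold change was -1.01 ± 0.14 (SE, n = 3 per group, edgeR adjusted p = 0.00169). Of the 10 genes listed as markers of retinal pigment epithelium, CDH2, MITF and OTX2 were counted in every library. By contrast, RPE65, TYR and RLBP1 had at most 2 counts in any library and TTR had none. Markers of blood, endothelial, liver and neural crest cells summed to 0.219 to 0.590 CPM, and PECAM1 was at 0 throughout. The 10 markers of retinal pigment epithelium summed to 414, 557 and 525 CPM in the controls and to 437, 343 and 332 CPM after MK5 siRNA, so the groups overlapped in replicate 1. The epithelial markers KRT8, KRT18 and TJP1 summed to 916, 947 and 908 CPM in the controls and to 708, 526 and 519 CPM after MK5 siRNA, with no overlap. MITF, a transcription factor of pigment cells, fell (-1.09 ± 0.14, edgeR adjusted p = 0.00114), as did the keratins KRT8 (-0.83 ± 0.18, adjusted p = 0.0104) and KRT18 (-0.74 ± 0.13, adjusted p = 0.00363). The part of these changes in the LINC genes' levels was not tested. Log2 fold changes set the MK5 siRNA group over the controls and come from edgeR's quasi-likelihood test over 13431 genes, and "rose" or "fell" means an adjusted p below 0.05.

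Of the 126 LINC genes, 124 passed the filter on low counts and were tested. After MK5 siRNA 26 rose and 21 fell, which is 21% and 16.9%, where 22.5% and 23.7% of all genes tested rose and fell. Called in either direction were thus 47 of the 124 members (21% higher and 16.9% lower), a smaller share than the 46.2% of all genes. That comparison is not matched for counts. At mean counts of 15 to 50, 20% of members rose and 16% fell, against 21.9% and 15.5% of other genes. At 50 to 150 it was 11.4% and 14.3% against 22.9% and 18.5%. At 150 or more it was 30.8% and 20.5% against 22.4% and 26.1%. The remaining 77 did not pass, and 66 of the 124 had an unadjusted p below 0.05. The counts moved with the libraries used. Without control replicate 1, 31 members rose and 42 fell (all genes 32.3% and 32.1%). Leaving out 1 other library at a time gave 15 to 21 rises and 13 to 18 falls, while 15.1% to 18.2% of all genes rose and 15.4% to 20.2% fell.

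**Figure D1:**
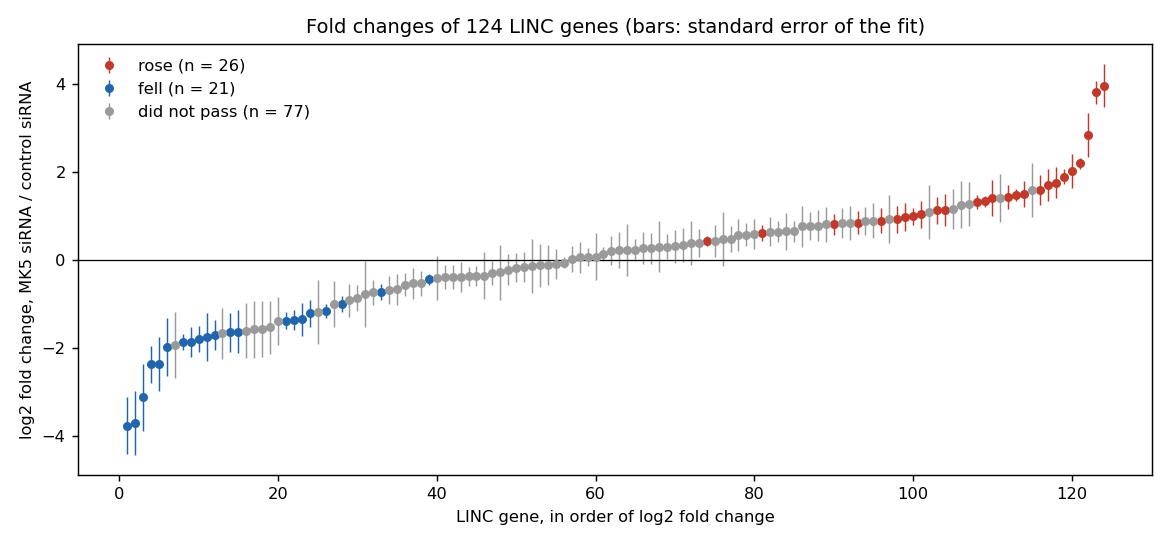
Log2 fold change (vertical axis) of the 124 tested LINC genes in order of that change (horizontal axis), with bars for the standard error of the edgeR fit. The 26 members that rose are red, the 21 that fell are blue and the 77 that did not pass are grey, and changes reach from -3.78 to 3.97.

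The changes of members were larger in median size than those of all genes, with larger errors. Their median log2 fold change was 0.22, beside 0.00 over all genes tested. The median size without regard to sign was 0.85 in members and 0.53 in all genes, and the median standard error was also larger, at 0.35 against 0.19. The difference in size was smaller against genes of like counts. At mean counts of 15 to 50 the median size was 1.06 in 50 members and 0.83 in other genes, at 50 to 150 it was 0.64 in 35 members and 0.72 in other genes, and at 150 or more it was 0.65 in 39 members and 0.48 in other genes. Among members, 18 rose and 19 fell at least 2-fold, where 1447 and 1543 of the 13431 genes tested did so. The lowest library of one group lay above the highest of the other in 37 members with higher and 25 with lower values after MK5 siRNA, where 30.6% and 29.8% of all genes did so. A gene can meet the mean count rule through 1 group alone, and such genes had to differ. Of 10 members with only the control mean at 15 counts or more, 7 fell, and of 12 with only the MK5 siRNA mean there, 5 rose. The 7 were LINC01547, LINC00513, LINC00211, LINC00460, LINC00519, LINC00638 and LINC01852. The 5 were LINC01134, LINC00324, LINC02081, LINC01534 and LINC02361. The direction of their changes was thus set in part by the rule. Of 102 members with both means at 15 counts or more, 21 rose and 14 fell, and their median size of change was 0.68. These are 20.6% and 13.7%, against 22.5% and 23.7% of all genes tested.

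Both members left untested were of that kind. LINC01778 had 0, 34 and 49 counts in control replicates 1, 2 and 3 and 4, 2 and 6 counts after MK5 siRNA. LINC00639 had 4, 67 and 63 counts in the controls and 2, 0 and 2 after MK5 siRNA. In each, control replicate 1 sat with or next to the MK5 siRNA libraries and the other two controls stood far above.

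The largest rise was that of LINC01134 (ENSG00000236423), a spliced RNA that starts next to the coding gene C1orf174. It met the mean count rule through the MK5 siRNA group alone. Its counts were 1, 1 and 4 in the control libraries and 26, 38 and 42 after MK5 siRNA. That corresponds to a log2 change of 3.97 ± 0.50 (edgeR adjusted p = 0.00123), and to 4.85 without control replicate 3, which holds most of the control counts. LINC02154 (ENSG00000235385) on the X chromosome rose from 0.766, 0.811 and 0.951 CPM to 9.27, 11.5 and 14.8 CPM, or 14.0-fold (3.81 ± 0.25, adjusted p = 0.000209). All 3 libraries with MK5 siRNA stood far above all 3 controls for both RNAs. LINC00520 (ENSG00000258791) was at 1.69, 0.737 and 0.402 CPM in the controls and at 4.96, 6.54 and 8.75 CPM after MK5 siRNA. Its change was 2.84 ± 0.50 (adjusted p = 0.00427), and 3.56 without control replicate 1, the highest of the controls.

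LINC00888 (ENSG00000240024), listed by RefSeq as the small nucleolar RNA host gene SNHG33, rose evenly. It went from 5.86, 6.78 and 6.25 CPM to 29.7, 27.4 and 29.4 CPM, a 4.58-fold change (2.19 ± 0.13, adjusted p = 0.000201). LINC00969, which RefSeq names MIR570HG as the host of microRNA 570, went from 2.41, 2.58 and 2.74 CPM to 9.16, 9.53 and 10.1 CPM (1.89 ± 0.16, adjusted p = 0.00037). In both the spread within a group was small beside the distance between groups. Exons of LINC00969 overlap the mucin gene MUC20 and the pseudogene SDHAP2, and an exon of LINC00888 overlaps a small RNA, so their counts are uncertain as to source.

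LINC00662 and LINC01128 also had a small spread within each group. LINC00662 went from 7.82, 8.92 and 7.39 CPM to 22.2, 21.9 and 23.1 CPM (1.48 ± 0.13, adjusted p = 0.000427). LINC01128 went from 9.04, 8.26 and 8.96 CPM to 23.1, 21.4 and 21.7 CPM (1.33 ± 0.12, adjusted p = 0.000453). The other members among the 10 largest rises were LINC00324 (2.02), LINC01003 (1.76), LINC01106 (1.70), LINC02081 (1.60) and LINC02193 (1.503), with adjusted p between 0.006 and 0.00907 and no overlap between groups. Each kept its call with any 1 library left out. LINC00324 and LINC02081 met the mean count rule through the MK5 siRNA group alone. LINC01106 and LINC02193 have near-identical copies elsewhere in the genome, and their counts may be shared with those. LINC00667, one of the 5 members with the highest counts, stood at 10.1, 20.1 and 20.2 CPM in the controls and at 27.04, 32.0 and 31.8 CPM after MK5 siRNA (0.85 ± 0.27, adjusted p = 0.0368). That call was lost without any 1 of the 3 MK5 siRNA libraries (adjusted p = 0.0693, 0.103 and 0.101 without replicates 1, 2 and 3). LINC00526, which overlaps LINC00667 on the opposite strand, also rose (1.40 ± 0.40, adjusted p = 0.0263). Its call was lost without control replicate 2 or 3 or MK5 siRNA replicate 1 or 3 (adjusted p up to 0.0898). Reads of this pair cannot be assigned to one of them if the counting ignored strand.

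Among the falls, LINC01547 (ENSG00000183250) and LINC00513 (ENSG00000233559) went down most. Like LINC00211 and LINC00460, they met the mean count rule through the controls alone. LINC01547 was at 1.15, 4.46 and 5.08 CPM in the controls and at 0.219, 0.383 and 0.168 CPM after MK5 siRNA, 13.7-fold lower (-3.78 ± 0.66, adjusted p = 0.00396). LINC00513 was at 0.651, 3.54 and 2.85 CPM in the controls and at 0.109, 0.278 and 0.135 CPM after MK5 siRNA (-3.72 ± 0.73, adjusted p = 0.00637). For both RNAs control replicate 1 was well below the other controls and still above every MK5 siRNA library. LINC00211 (ENSG00000237803) fell from 12, 39 and 34 counts to 0, 4 and 6 (-3.13 ± 0.77, adjusted p = 0.0151), and LINC00460 from 15, 25 and 39 counts to 1, 9 and 6 (-2.37 ± 0.62, adjusted p = 0.0191). These counts are low, and LINC00211 lost its call without MK5 siRNA replicate 2 (adjusted p = 0.0567) and changed by -3.80 without replicate 3. LINC00460 lost its call without control replicate 3 (adjusted p = 0.0594) or MK5 siRNA replicate 3 (adjusted p = 0.0686).

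LINC00641 and LINC02535 were higher in control replicate 1 than in the other controls. LINC00641 (ENSG00000258441) went from 27.4, 19.9 and 19.5 CPM to 6.13, 6.54 and 5.62 CPM (-1.87 ± 0.18, adjusted p = 0.000541). LINC02535 went from 8.12, 5.31 and 3.95 CPM to 1.17, 1.98 and 1.62 CPM (-1.86 ± 0.34, adjusted p = 0.00491). LINC01293 had the same order, from 6.78, 3.58 and 3.07 CPM to 0.730, 0.626 and 1.21 CPM (-2.38 ± 0.42, adjusted p = 0.00412). RefSeq lists LINC01293 as another name of LINC01291, which fell too (-0.74 ± 0.18, adjusted p = 0.0155), so these 2 members may not be separate genes. LINC01119 fell by 1.81 (adjusted p = 0.00332). LINC00638 fell by 1.75 (adjusted p = 0.0346), but its call was lost without any 1 library other than control replicate 1, with an adjusted p of 0.0746 without control replicate 2, 0.104 without control replicate 3, and 0.112, 0.104 and 0.0769 without MK5 siRNA replicates 1, 2 and 3. It also lost the call in limma-voom (adjusted p = 0.0692), and it met the mean count rule through the controls alone.

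The most abundant members per length were LINC01638, LINC01605 and LINC00973. LINC01638 (ENSG00000233521) stood at 28.7, 75.5 and 70.0 CPM in the controls and at 19.9, 17.0 and 16.2 CPM after MK5 siRNA (-1.71 ± 0.35, adjusted p = 0.00728). LINC01605 stood at 30.0, 52.4 and 52.0 CPM in the controls and at 15.9, 18.4 and 17.7 CPM after MK5 siRNA (-1.37 ± 0.23, adjusted p = 0.00328). Both were far lower in control replicate 1 than in the other controls, with no overlap between groups. LINC00973 was at 20.8, 25.3 and 25.2 CPM in the controls and at 21.0, 23.8 and 23.3 CPM after MK5 siRNA, and the groups overlapped (-0.07 ± 0.13, adjusted p = 0.707). Per kilobase of exon the mean level was 59.6 CPM in controls and 18.1 CPM after MK5 siRNA for LINC01638, 29.4 and 11.4 CPM for LINC01605, and 24.7 and 23.6 CPM for LINC00973. The median over members was 0.991 CPM per kilobase, against 5.84 over 12434 coding genes tested.

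**Figure D2:**
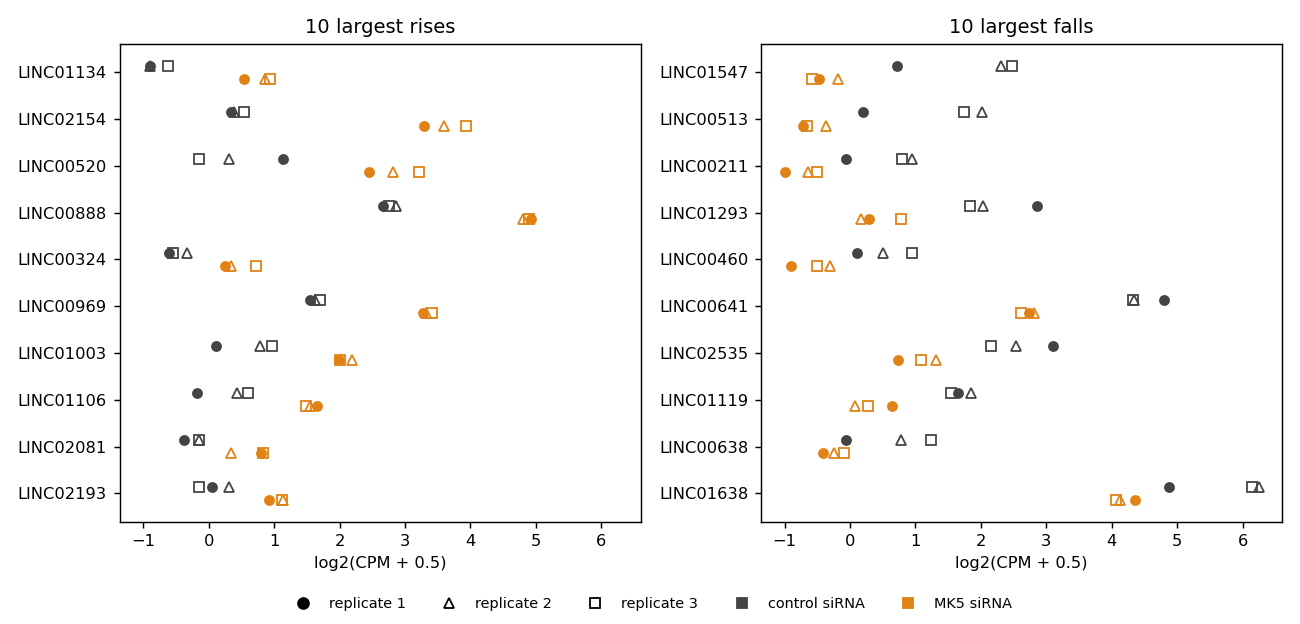
Level in each library, as log2(CPM + 0.5), of the 10 members with the largest rises (left) and the 10 with the largest falls (right) among called members whose groups do not overlap; grey is control siRNA, orange MK5 siRNA, and the symbol shows the replicate number. In LINC01638, LINC01547 and LINC00513 control replicate 1 (filled circle) lies between the other controls and the MK5 siRNA libraries, while in LINC00641 it is the highest library.

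Members listed by name went in different directions. LINC01116 went from 2.80, 6.38 and 5.93 CPM to 0.839, 2.19 and 1.75 CPM (-1.65 ± 0.44, adjusted p = 0.0208). Its lowest control lay above its highest MK5 siRNA library, and the call was lost without control replicate 2 or 3 or MK5 siRNA replicate 1 or 3 (adjusted p = 0.0609, 0.0563, 0.0552 and 0.0636). LINC00116, now named MTLN, encodes the small mitochondrial membrane protein mitoregulin and is the only member with a RefSeq protein. It stood at 14.4, 7.85 and 11.3 CPM in the controls and at 8.87, 8.59 and 8.58 CPM after MK5 siRNA, with overlap (-0.37 ± 0.23, adjusted p = 0.233). LINC00963, LINC00472, LINC00467, LINC00511, LINC00941 and LINC00707 did not pass either. Their log2 changes were 0.01 ± 0.29, 0.06 ± 0.35, 0.22 ± 0.42, -0.17 ± 0.34, -0.54 ± 0.35 and -0.78 ± 0.74. With replicate 1 of both groups left out, LINC00511 passed as lower (-0.69, adjusted p = 1.8e-05), as did LINC00963 (-0.18, adjusted p = 0.0468), LINC00941 (-0.53, adjusted p = 0.00019) and LINC00707 (-0.48, adjusted p = 0.00376). That fit rests on replicates 2 and 3 alone, 2 libraries per group. Between the replicate 1 libraries LINC00511 and LINC00963 were instead higher after MK5 siRNA, by log2 differences of 0.97 and 0.64. LINC00941 and LINC00707 were lower there too (-0.52 and -2.18). LINC00511 stood at 5.21, 10.5 and 11.6 CPM in the controls and at 10.7, 6.75 and 6.90 CPM after MK5 siRNA. LINC00941 also passed with the replicate number as a block (adjusted p = 0.0299) and without control replicate 1 (adjusted p = 0.0341). LINC00707 was at 0.328 CPM in MK5 siRNA replicate 1 and at 4.42 and 4.01 CPM in the other 2 with MK5 siRNA, and the groups overlapped.

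Control replicate 1 was low for most of these RNAs. In 97 of 124 members (78.2%) it was below both other controls, against 45.3% of the other genes tested, and the share was 57.1% in other genes with mean counts of 15 to 50. The members' median log2 difference between control replicate 1 and the mean of the other controls was -0.61, and -0.00 in other genes. MK5 siRNA replicate 1 was below both of its partners in 62.1% of members and 41.7% of other genes, with a median difference of -0.21. At mean counts of 15 to 50 this order was turned, with 48% of members and 57.4% of other genes. At 50 to 150 counts it was 74.3% and 52.6%, and at 150 or more 69.2% and 38.2%. Summed over members, the level was 483, 748 and 748 CPM in the controls and 574, 664 and 675 CPM after MK5 siRNA, so that control replicate 1 was 35.4% and MK5 siRNA replicate 1 14.3% lower than the mean of their partners. Other RNA classes gave the following values. In control replicate 1 the sum of named long noncoding RNAs was 31.4% lower and that of mitochondrial genome genes 34.7% lower, while antisense RNAs were 14.9% lower and microRNA host genes 29.6% higher. Gene by gene, control replicate 1 was below both other controls in 67.4% of 291 antisense RNAs (median log2 difference -0.37), in 9 of 15 microRNA host genes (median -0.32), and in 11 of 19 named long noncoding RNAs (median -0.26), so the sum of the microRNA host genes and their median differed in sign. What set replicate 1 apart was not tested.

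**Figure D3:**
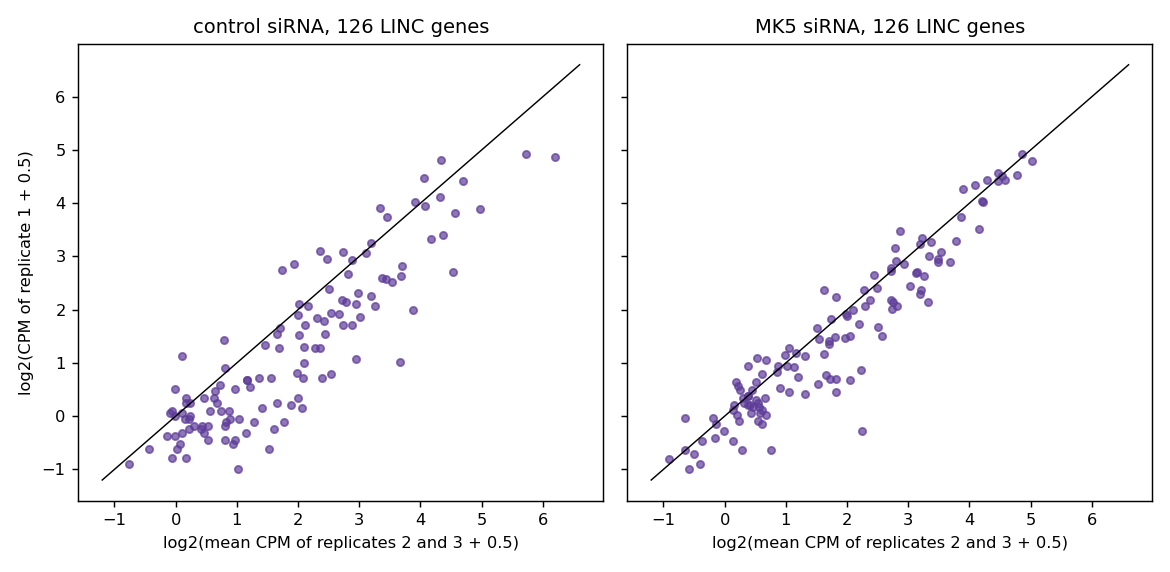
Each point is 1 of 126 LINC genes, with its level in replicate 1 (vertical axis) against the mean of replicates 2 and 3 (horizontal axis), as log2(CPM + 0.5), for control siRNA (left) and MK5 siRNA (right). The line marks equal levels, and most points lie below it, further so in the controls.

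The pairs differed in the members' median. The median change between libraries of the same replicate number was 0.31 in pair 1, -0.01 in pair 2 and -0.02 in pair 3. Of the called members, 26 of 26 that rose and 20 of 21 that fell changed in the called direction in all 3 pairs. The calls came from the same 6 libraries. Groups did not overlap in 25 of the rises and 20 of the falls, which fixes the sign of each pair. The agreement is therefore not separate support for the calls. Among the 77 that did not pass, control replicate 1 was below both other controls in 67 (87%). Leaving that library out raises the control mean of these 67. Over all genes tested, the calls went from 22.5% higher and 23.7% lower to 32.3% and 32.1% without it. Of the 77 members 24 then passed, 5 higher and 19 lower. The like share among all genes that did not pass was not counted. LINC01963, for example, was at 1.53, 10.8 and 13.5 CPM in the controls and at 1.13, 2.43 and 3.16 CPM after MK5 siRNA (-1.93 ± 0.75, adjusted p = 0.0731, and 0.0272 with the replicate number as a block). LINC00704, also named MANCR, was at 3.49, 13.3 and 15.03 CPM in the controls and at 3.54, 5.91 and 6.33 CPM after MK5 siRNA (-1.01 ± 0.52, adjusted p = 0.154). Replicates 2 and 3 were higher in the controls in both, while replicate 1 was low in each group. LINC01963 and LINC00704 were chosen as examples after their values were seen. With each library left out in turn, 26 of the 47 calls (15 rises and 11 falls) held throughout, and none of the 47 changed direction.

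A LINC symbol does not make a gene free of neighbours. GENCODE release 29, matched by gene identifier, classed 102 members as lincRNA, 8 as processed transcripts, 7 as transcribed unprocessed pseudogenes, 5 as antisense, 2 as bidirectional-promoter RNAs and 1 each as a unitary pseudogene and a coding gene. Exons of 42 members overlap those of another gene, on the opposite strand in 27, and 14 have a near-identical copy elsewhere. Among the 51 tested members with an overlap or a copy 14 rose and 3 fell, with a median change of 0.39. Among the 73 with neither 12 rose and 18 fell, with a median of -0.18. Of all genes tested, 22.5% rose and 23.7% fell. Whether members with and without an overlap or a copy differ was not tested, and for the overlapping members the source of the counts is uncertain.

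Coding neighbours were set beside the members as a description. The nearest coding gene was tested for 18 of the 21 members that fell, and of these 7 fell, none rose and 11 did not pass. It was tested for 17 of the 26 that rose, and of these 4 rose, 3 fell and 10 did not pass. Among the 61 tested neighbours of members that did not pass, 18 rose and 15 fell, and among all 96 tested neighbours 22 rose and 25 fell. The 7 that fell count POLE4 for both LINC01291 and LINC01293. Over 96 members with a tested neighbour the log2 changes of member and neighbour correlated at Pearson r = 0.31 and Spearman rho = 0.31. These points are genes measured in the same 6 libraries and are not replicates. LINC02535 fell beside NT5E, the ecto-5'-nucleotidase CD73, which fell by 1.63 ± 0.16 (adjusted p = 0.00057). LINC00641 fell beside HNRNPC, a nuclear RNA-binding protein (-0.81 ± 0.15, adjusted p = 0.00461). LINC01293 and LINC01291 fell beside POLE4, a subunit of DNA polymerase epsilon (-0.54 ± 0.12, adjusted p = 0.00908). LINC01776 fell beside DPYD, the first enzyme of pyrimidine breakdown (-1.29 ± 0.15, adjusted p = 0.0009). The nearest coding gene need not be close. HNRNPC lay 2.2 kilobases from its member, POLE4 15.8 from LINC01293 and 20.1 from LINC01291, NT5E 59.4 and DPYD 215.7. LINC01291 lost its call without replicate 2 of either group (adjusted p up to 0.071), and LINC01776 without control replicate 2 or 3 or MK5 siRNA replicate 1 or 3 (adjusted p up to 0.0943).

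Opposite directions occurred among rises. LINC00324 rose while CTC1, a protein of the telomere-capping CST complex, fell by 1.12 ± 0.24 (adjusted p = 0.00859). LINC00674 rose while the nuclear import receptor gene KPNA2 fell by 1.41 ± 0.37 (adjusted p = 0.019). LINC00674 has a near-identical copy in the gene SMURF2, and its counts may be shared with that gene. LINC01278 rose while SPIN4 fell by 1.31 ± 0.30 (adjusted p = 0.0112). The call of LINC01278 was lost without any 1 library other than control replicate 1 (adjusted p up to 0.0876). LINC01003 rose with KMT2C, a histone methyltransferase (0.93 ± 0.13, adjusted p = 0.00196), and LINC01128 with SAMD11 (2.60 ± 0.49, adjusted p = 0.00544). CTC1 lay 0.8 kilobases from its member, KMT2C 27.8, KPNA2 55.1 and SAMD11 64.5, while SPIN4 overlapped LINC01278.

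**Figure D4:**
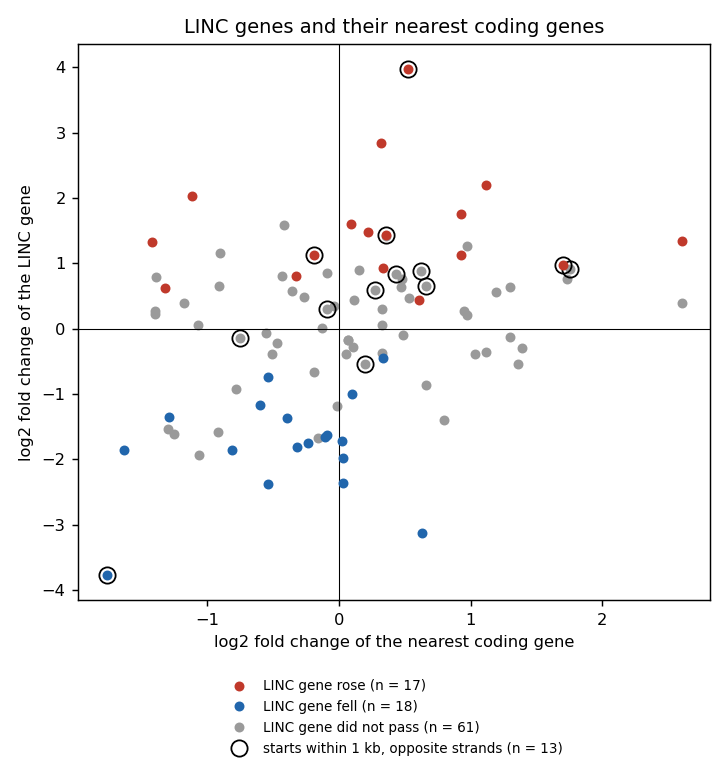
Log2 fold change of each LINC gene (vertical axis) against that of its nearest coding gene (horizontal axis) for 96 tested pairs, coloured by the LINC gene's call; open circles mark 13 pairs that start within 1 kilobase of each other on opposite strands. Blue points, members that fell, lie mostly at negative values of the neighbour, and FAM207A beside LINC01547 is the lowest of these at -1.76.

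Divergent pairs, in which a member and a coding gene start within 1000 bases of each other on opposite strands, numbered 15, of which 5 members rose, 1 fell and 9 did not pass. Of all genes tested, 22.5% rose and 23.7% fell. LINC01547 and FAM207A fell together, FAM207A by 1.76 ± 0.13 (adjusted p = 0.000238). LINC00205 rose with POFUT2, which encodes a protein O-fucosyltransferase (1.70 ± 0.19, adjusted p = 0.000812). LINC00205 itself was at 1.92, 4.53 and 4.21 CPM in the controls and at 6.79, 7.23 and 7.00 CPM after MK5 siRNA (0.98 ± 0.32, adjusted p = 0.0421). Every MK5 siRNA library stood above every control, but the call was lost without control replicate 3 or any MK5 siRNA replicate, with an adjusted p of up to 0.111. C1orf174 beside LINC01134 changed by 0.53 ± 0.23 (adjusted p = 0.102), and ZNF567 beside LINC01534 by 0.36 ± 0.20 (adjusted p = 0.184), while both LINC genes rose. AHI1 rose (1.75 ± 0.25, adjusted p = 0.00188) beside LINC00271, which did not pass. The promoters of these divergent members are shown because a single stretch lies before both genes. The sequences are RefSeq's for GRCh38.p14, from 250 bases before to 50 bases after the annotated start, read 5' to 3' on the strand of the LINC gene: LINC01134 at chr1:3900154-3900453 (plus strand), LINC00205 at chr21:45287802-45288101 (plus strand) and LINC01547 at chr21:44939864-44940163 (minus strand). None of the 6 searched motifs described below occurs in them, so no base is in capitals.
LINC01134: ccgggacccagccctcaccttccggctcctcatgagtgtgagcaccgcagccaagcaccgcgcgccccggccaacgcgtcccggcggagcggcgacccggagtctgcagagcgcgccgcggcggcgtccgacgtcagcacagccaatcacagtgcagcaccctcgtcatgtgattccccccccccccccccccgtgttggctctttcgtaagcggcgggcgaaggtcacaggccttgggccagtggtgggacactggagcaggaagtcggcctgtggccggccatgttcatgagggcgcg
LINC00205: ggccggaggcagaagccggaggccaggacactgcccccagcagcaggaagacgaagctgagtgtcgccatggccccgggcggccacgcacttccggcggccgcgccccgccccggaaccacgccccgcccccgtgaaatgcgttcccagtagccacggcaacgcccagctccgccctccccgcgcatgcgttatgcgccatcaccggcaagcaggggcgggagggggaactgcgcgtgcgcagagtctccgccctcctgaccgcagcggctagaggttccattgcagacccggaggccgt
LINC01547: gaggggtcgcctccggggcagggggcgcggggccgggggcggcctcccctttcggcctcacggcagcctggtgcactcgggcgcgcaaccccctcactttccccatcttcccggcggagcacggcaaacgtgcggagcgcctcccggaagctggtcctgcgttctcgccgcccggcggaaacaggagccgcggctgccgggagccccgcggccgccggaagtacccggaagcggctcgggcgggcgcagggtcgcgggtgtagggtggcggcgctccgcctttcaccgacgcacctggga

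Promoter sequences were matched by symbol for 69 members, of which 15 rose, 14 fell and 39 did not pass. CG dinucleotides, whose clustering marks the CpG islands of many housekeeping promoters, numbered 24 in the median promoter of members that rose, 6 in those that fell and 11 in those that did not pass, against 14 over 35116 RefSeq promoters. The divergent promoters of LINC01134, LINC00205 and LINC01547 hold 32, 34 and 42. LINC01547, LINC01116, LINC01852 and LINC01833, with 42, 34, 27 and 24, fell with as many as the median rise or more. With 14 and 15 promoters a side this is a description.

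**Figure D5:**
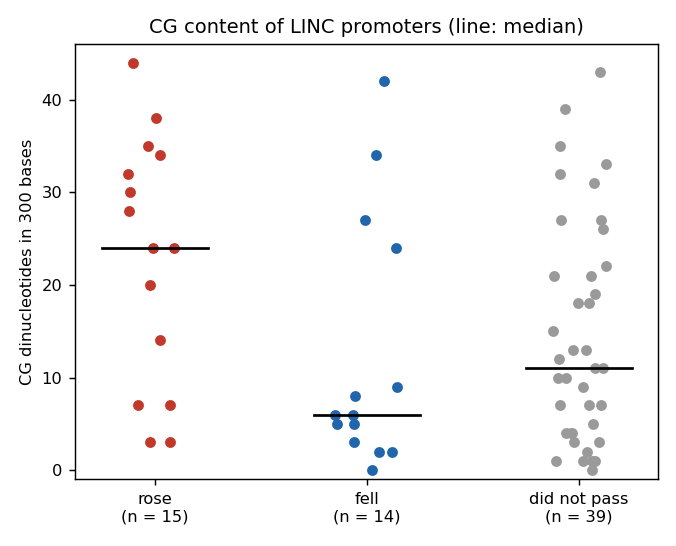
Number of CG dinucleotides in the 300-base promoter of each LINC gene with a RefSeq promoter (vertical axis), for 15 members that rose, 14 that fell and 39 that did not pass; the line is the median, at 24, 6 and 11. The 3 groups overlap over most of their range.

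Motifs were searched on both strands as exact letters: TGANTCA for AP-1, GGAATG for TEAD (the DNA-binding partner of YAP), TGACGTCA for the cyclic AMP response element, TGATGNAA for C/EBP-ATF, CACGTG for the E-box and TATAAA for the TATA box. The AP-1 letters were in 13 of 69 member promoters (18.8%) and in 7.71% of all promoters of the same length. They were in 4 of 14 that fell, 2 of 15 that rose and 7 of 39 that did not pass. The TEAD letters were in 11.6% of member promoters and 14.0% of all, with 2 of 14 among falls and 1 of 15 among rises. TATAAA was in 15.9% of members and 11.5% of all, CACGTG in 5.8% and 7.26%, TGACGTCA in 2.9% and 1.85%, and TGATGNAA in 1.45% and 3.62%. A match describes letters and is neither a bound site nor a cause. The promoters of 3 members that fell are shown because each holds the AP-1 letters at 2 places, with every match to a searched motif in capitals: LINC00513 at chr7:130913214-130913513 (plus strand), LINC00460 at chr13:106376314-106376613 (plus strand) and LINC02535 at chr6:85404753-85405052 (minus strand). LINC00339, which rose, and LINC01615, which did not pass, also hold the AP-1 letters at 2 places and are not shown, so this is not particular to falls. LINC00513 and LINC00460 met the mean count rule through the controls alone. In LINC00513 the other capitals are TATA, TEAD and E-box letters, and in LINC02535 they are TATA and C/EBP-ATF letters.
LINC00513: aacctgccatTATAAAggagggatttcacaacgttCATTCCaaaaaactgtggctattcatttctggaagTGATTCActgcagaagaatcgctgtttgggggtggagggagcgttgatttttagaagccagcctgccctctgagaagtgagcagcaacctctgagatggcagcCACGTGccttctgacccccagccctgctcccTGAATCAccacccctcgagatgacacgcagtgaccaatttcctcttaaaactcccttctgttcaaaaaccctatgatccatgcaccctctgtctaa
LINC00460: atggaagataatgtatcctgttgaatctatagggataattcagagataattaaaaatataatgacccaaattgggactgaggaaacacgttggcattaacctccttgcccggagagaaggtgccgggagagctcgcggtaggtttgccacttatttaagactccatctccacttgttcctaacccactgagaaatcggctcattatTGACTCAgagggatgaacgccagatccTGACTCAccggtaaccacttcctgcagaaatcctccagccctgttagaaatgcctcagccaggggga
LINC02535: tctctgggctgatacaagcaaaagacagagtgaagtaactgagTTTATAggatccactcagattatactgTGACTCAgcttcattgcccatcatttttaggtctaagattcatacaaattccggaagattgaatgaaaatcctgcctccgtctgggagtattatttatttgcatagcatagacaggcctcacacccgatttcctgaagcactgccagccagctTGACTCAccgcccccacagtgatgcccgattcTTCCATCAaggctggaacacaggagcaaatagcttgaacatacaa

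Other classes of long noncoding RNA were counted in the same fit, in which 22.5% of all genes rose and 23.7% fell. Of 291 antisense RNAs tested, 57 rose and 44 fell (19.6% and 15.1%, median 0.21). DICER1-AS1 was the largest rise (4.06 ± 0.47, adjusted p = 0.000938) and HIF1A-AS2 the largest fall (-3.82 ± 0.60, adjusted p = 0.00269). Of 20 small nucleolar RNA host genes listed by symbol 1 rose and 6 fell (5% and 30%, median -0.06). The rise in this list was SNHG18 (1.29 ± 0.12, adjusted p = 0.000427) and the largest fall SNHG15 (-0.99 ± 0.15, adjusted p = 0.00255). Host genes that the deposited table names as LINC genes are not in these lists. Among them LINC00888 (SNHG33) rose by 2.19 and LINC00969 (MIR570HG) by 1.89, while LINC02001 (SNHG30) did not pass. Of 15 microRNA host genes listed by symbol 2 rose and 4 fell (13.3% and 26.7%, median -0.24). The calls ran from MIR503HG at -2.79 ± 0.45 (adjusted p = 0.00288) to MIR4458HG at 1.12 ± 0.25 (adjusted p = 0.0102). Of 19 named long noncoding RNAs 2 rose and 4 fell (10.5% and 21.1%, median -0.25). MEG3, an imprinted RNA, rose by 1.79 ± 0.47 (adjusted p = 0.0188) and OIP5-AS1 fell by 1.35 ± 0.17 (adjusted p = 0.00127). Of 27 genes of the nuclear exosome and other RNA decay pathways, which remove many noncoding transcripts, 2 rose and 6 fell (7.41% and 22.2%, median -0.21). ZFC3H1, which targets nuclear polyadenylated RNA to the exosome, rose by 0.48 ± 0.13 (adjusted p = 0.0199), and the exosome subunit EXOSC2 fell by 1.40 ± 0.14 (adjusted p = 0.000629). The part of these changes in the LINC genes' levels was not tested.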

How the data were processed

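The deposited table gives whole-number counts per gene and library, made by the authors; although its name speaks of CPM, values sum to about the same large total in each library and were treated as counts. Tools in the submitters' processing notes were Trimmomatic 0.36, FastQC, HTSeq 0.9.1 and TopHat2 2.1.1, with build GRCh37; libraries were made with the TruSeq V2 RNA kit, per the labels' protocols. The annotation release and strand setting were not given in the sources used here. In R 4.3.3, edgeR 4.0.16 (filterByExpr with a least count of 10 and least total of 15, TMM, quasi-likelihood test without a block, two-sided, Benjamini-Hochberg over 13431 genes) compared the groups. The standard error is the log2 fold change divided by the square root of F, and the common biological coefficient of variation was 21.2%. CPM use TMM-scaled totals, and pair changes are differences of log2(CPM + 0.5). Where a symbol was repeated, the row with the highest mean was used. Variance over the Poisson value between replicates 2 and 3 was 1.51 in controls and 1.56 after MK5 siRNA over members, and 11.8 and 7.57 over genes of at least 1000 counts, so they were kept as separate libraries.

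Same-numbered libraries correlated at 0.258, 0.206 and 0.248 in their deviations from the group means across genes, so by the rule used the numbers pair the libraries, although no label names a shared day; replicates 2 and 3 also correlated across groups at 0.151 and 0.182. GENCODE 29 (GRCh38) gave classes, lengths, overlaps and nearest coding genes by gene identifier for all 126 members; the neighbour search was planned on the RefSeq gene table, and GENCODE was used because its identifiers match. Copies are blastn 2.17.0 matches of at least 95% identity over at least 50% of the longest transcript. RefSeq promoters (GRCh38.p14) were matched by symbol. Named members are the 10 largest rises and 10 largest falls among called members whose groups do not overlap, the 5 of highest mean count, and a list of names, and MAPKAPK5; other members, such as LINC01128, LINC00526 and those set beside a coding neighbour, were chosen after their values were seen. Members and lists were chosen with earlier results of these data known. The script was tested on simulated counts. Alternatives were other scalings, DESeq2 1.42.0, limma-voom 3.58.1, other filters, a replicate block and left-out libraries.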

Additional observations from a re-analysis of the deposited data

How the results depend on the processing

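With RLE or upper-quartile scaling, limma-voom or DESeq2, 26 to 28 members rose and 21 to 31 fell (all genes 20.9% to 23.3% and 22.9% to 23.8%), and with no filter on low counts 21 rose and 23 fell (16.7% and 18.3% of members, 12.9% and 14.2% of all genes). Among members with a mean count of at least 50, 16 rose and 13 fell because fewer members enter. With 1 library left out in turn, 15 to 31 rose, 13 to 42 fell and the median change ran from -0.074 to 0.33. With replicate 1 of both groups left out, 43 rose and 50 fell (all genes 37.9% and 37.8%), with a median of 0.0094, and these include all 26 rises and 21 falls. With the replicate number as a block, 31 rose and 27 fell (all genes 23.5% and 23.9%); LINC00519 alone lost its call (adjusted p = 0.101), and of the members named by the rule LINC00941 gained one. With 1 library left out in turn, the sign reversed in 21 members, none of which had passed in the main comparison. Among the members named by the rule it reversed in 4. With 1 library left out the change of LINC00963 ran from -0.26 to 0.17, that of LINC00472 from -0.25 to 0.25, that of LINC00467 from -0.082 to 0.48 and that of LINC00511 from -0.45 to 0.028. The first 3 turned negative without control replicate 1 or MK5 siRNA replicate 3, and LINC00511 turned positive without control replicate 3. Without replicate 1 of both groups LINC00963 changed by -0.18 (adjusted p = 0.0468), LINC00472 by -0.12 (adjusted p = 0.353) and LINC00511 by -0.69 (adjusted p = 1.8e-05). That fit had fewer libraries per group than the main comparison. The cause of these differences was not tested. Depth limits precision: the median standard error was 0.39 in members of 15 to 50 counts, 0.37 at 50 to 150 and 0.25 at 150 or more. In these bands 18 of 50, 9 of 35 and 20 of 39 members were called. The shares that rose were 20%, 11.4% and 30.8% of members, against 21.9%, 22.9% and 22.4% of other genes. The shares that fell were 16%, 14.3% and 20.5% of members, against 15.5%, 18.5% and 26.1% of other genes. Members are not replicates of one another.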
